A study of Homo sapiens with 12 samples.

Results

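Double-strand break repair and the Fanconi anemia pathway were described here through 37 genes, out of 31654 gene symbols in the expression table, taken by name from a list of repair, checkpoint and Fanconi genes. All 37 were in the table, and all 37 passed the filter on low values. The libraries came from 4 cultured human glioblastoma groups with 3 libraries each. U251TR and U87TR are temozolomide-resistant sublines, raised in vitro from U251MG and U87MG by repeated exposure to rising doses of the drug, and U251MG and U87MG are the parental lines. The labels name no genetic change in any group, give no drug exposure at harvest, and list 1 resistant subline per parent. With a single subline each, resistance and any other difference acquired during selection cannot be told apart. Whether the 3 libraries of each group are separate cultures is not stated in the labels, and p-values cover the library-to-library spread alone, which may be technical.

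Temozolomide methylates DNA, and a methylated guanine that is not repaired is mispaired at replication, which in the end leaves breaks and stalled forks. A double-strand break is recognised by the MRE11-RAD50-NBN complex and signalled by the kinases ATM and ATR. It is then either trimmed and copied from the sister chromatid by homologous recombination, which works in S phase and G2, or rejoined directly by non-homologous end joining, which works throughout the cell cycle. The Fanconi anemia pathway detects replication forks blocked by DNA crosslinks: a core complex attaches ubiquitin to FANCD2 and FANCI, and recombination finishes the repair.

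The values were FPKM, fragments scaled to transcript length and to the library's mapped total, so levels can be compared between genes. The table gives no counts, so the depth of each library is unknown and no counting interval is given. The number of genes at or above 1 FPKM ranged between 13135 and 14122 over the libraries. U251MG replicate 2 stood apart from the other U251MG libraries, with Spearman coefficients over genes of 0.977 and 0.978 to its sister libraries, which reached 0.993 with each other. All 3 U87TR libraries carry codes from another number block than the other 9, so that block and resistance cannot be told apart in U87. Among glial markers, U251MG and U251TR expressed GFAP and SOX2, whereas U87TR and U87MG were at or under 2.28 FPKM for GFAP and at or under 0.3 FPKM for SOX2. All 12 libraries expressed VIM and CD44. These are 4 of 8 glial markers read. Of the 8, 2 rose and 5 fell in U251TR (25% and 62.5%, where 33.6% and 19.6% of all genes did). Their log2 fold changes there ran from -2.37 to 4.09. In U87TR 2 rose and 3 fell (25% and 37.5%, where 10.6% and 17.2% of all genes did), from -1.04 to 1.60. Of 12 markers of other cell types, the 10 that were read summed to 8.24 to 12.1 FPKM in U251TR, against 3.73 to 7.93 FPKM in U251MG. They summed to 336 to 369 FPKM in U87TR, against 279.7 to 388 FPKM in U87MG. Most of the U87 sum was CD68, a lysosomal protein used as a macrophage marker, at 313 to 344 FPKM in U87TR and 190.1 to 205 FPKM in U87MG, and COL1A1, a collagen of fibroblasts, at 15.6 to 20.4 FPKM in U87TR and 87.5 to 182 FPKM in U87MG. Of the 10, PTPRC (leukocytes), CDH1 (epithelium) and MOG (oligodendrocytes) reached no more than 0.08 FPKM in any library. Only 4 of the 10 passed the filter on low values. Of these 4, 1 rose and 0 fell in U251TR, where 33.6% and 19.6% of all genes did. In U87TR 2 rose and 1 fell, with log2 fold changes from -2.62 to 1.53, where 10.6% and 17.2% of all genes did. The part of other cell types in the results was not tested.

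The calls in these genes differed between the resistant lines: most of the genes rose in U251TR, and almost none were called in U87TR. A gene that was not called may still have changed. In U251TR 21 of the 37 genes were higher than in U251MG (56.8%, where 33.6% of all 15449 genes tested were higher) and 4 were lower (10.8%, where 19.6% of all genes were lower), each at an adjusted p under 0.05 in limma. In either direction 53.2% of all genes were called. The median log2 fold change of the 37 genes was 0.42, and that of all genes tested was 0.10. At least 1.5-fold rises numbered 14 of 37, where 20.7% of all genes rose that much, and at least 1.5-fold falls numbered 2, where 10.4% did. In U87TR none of the 37 genes was higher than in U87MG (10.6% of all genes were) and 2 were lower, where 17.2% of all genes were. No member was called in both lines, where 8.65% of all genes were called in the same direction in both and 6.95% in opposite directions. At 1.5-fold or more, none of the 37 was higher in U87TR, where 5.83% of all genes were, and none lower, where 7.41% were. The U87TR libraries all lay above U87MG for 4 of 37 genes and all below for 9, where 18.3% and 28.3% of all genes did so. The U251TR libraries all lay above U251MG for 20 and all below for 4, where 36.4% and 22.6% of all genes did so. At an unadjusted p under 0.05 in limma, 1 of the 37 was higher in U87TR and 7 were lower, where 14.7% of all genes were higher and 23.8% were lower. With median-of-ratios scaling or quantile normalization ATR was called higher in U87TR, where 2022 and 1998 of 15449 genes were. When only the 6 U87 libraries were fitted, 6 members were called lower, where 2824 of 15449 genes were. Leaving out 1 library at a time gave 8 lower members without U251MG replicate 2, where 3458 of 15252 genes were lower. Without U87MG replicate 3 it gave 6, where 2684 of 15330 genes were lower. The count over all genes thus shifted with the library left out as well. Without U87TR replicate 1 or 3, or U87MG replicate 1 or 2, 1 member was lower, where 1722 to 2037 genes were. ATR was called higher without U87TR replicate 1 or U87MG replicate 1, where 1181 and 1264 genes were. The median log2 fold change in U87TR was -0.08 for the members and -0.05 for all genes. U251MG replicate 2 and U251TR replicate 3 stood furthest from their groups over the members. Without these libraries, 25 members were higher in U251TR and 3 were lower, where 5177 and 2924 of 14853 genes were. The count of members higher in U251TR was 17 with median-of-ratios scaling, where 4211 of 15449 genes tested were higher. It was 18 with quantile normalization, where 4123 of 15449 were. It was 23 when all libraries were rescaled to an equal sum, where 6265 of 16275 were. Taken out of the called genes alone, not of all genes tested, the share higher in U251TR was 63.2% as deposited. It was 51.3%, 49.3% and 72.2% under those scalings. In U87TR that share was 38.1% as deposited and 49.0%, 48.8% and 47.2%.

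The change with resistance itself differed between the lines at 25 of the 37 genes (47.6% of all genes differed), by a contrast of both changes in the same limma fit. Taken as U87 minus U251, 22 were lower (32.1% of all genes were) and 3, ATR, WRN and LIG4, were higher (15.4% of all genes were).

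**Figure D1:**
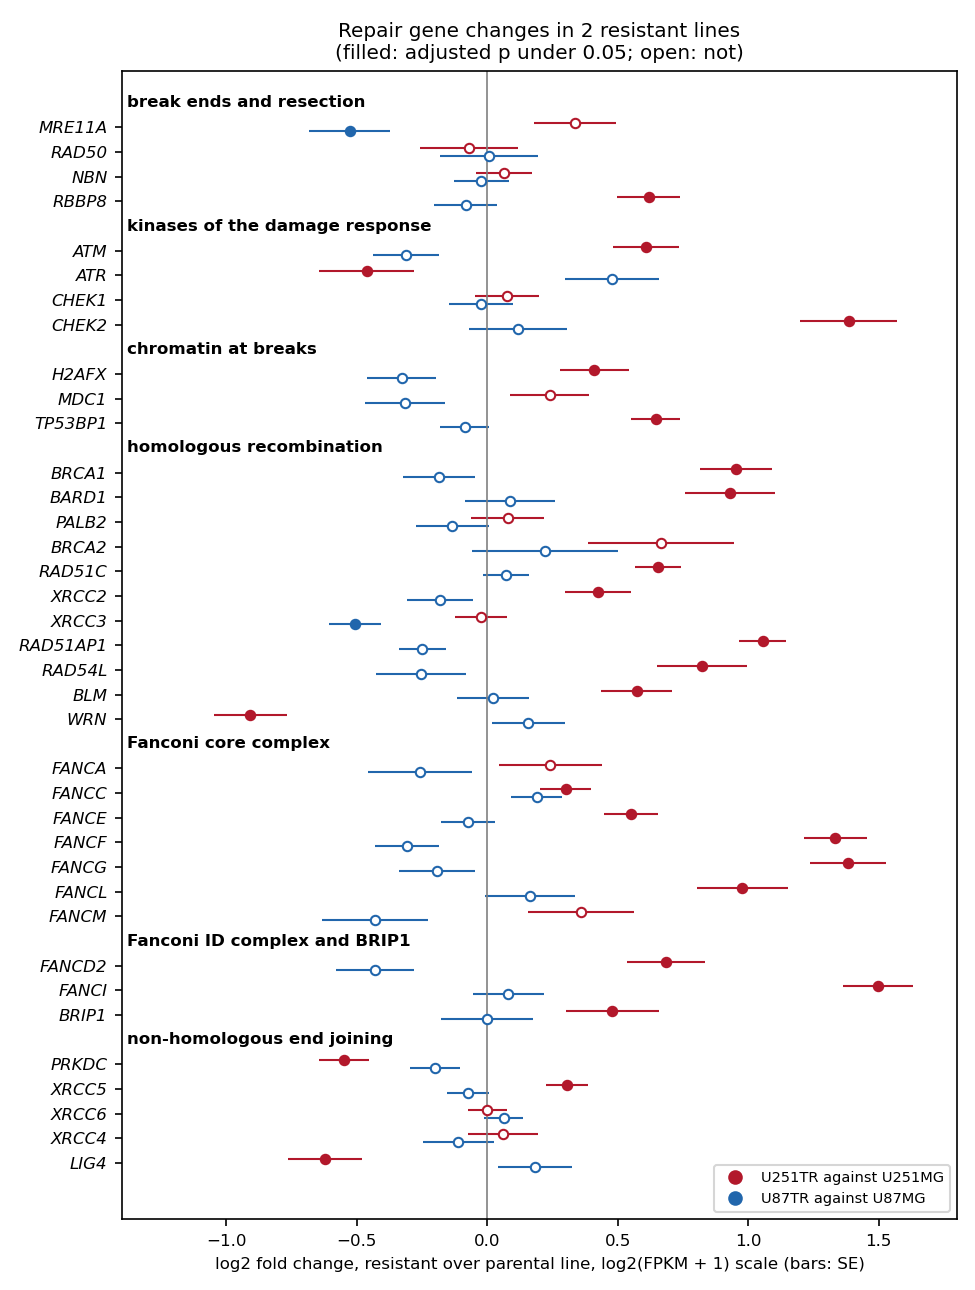
Log2 fold change on the log2(FPKM + 1) scale (x axis) with its SE for each of the 37 repair genes (rows, grouped by role). Red points are U251TR against U251MG and blue points are U87TR against U87MG. Filled points passed adjusted p under 0.05. Filled red points lie to the right of 0 for 21 genes and to the left for 4 (ATR, WRN, PRKDC and LIG4). Filled blue points are MRE11A and XRCC3, both to the left.

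The Fanconi core complex, the ubiquitin ligase of the pathway, had 5 of 7 members higher in U251TR and none lower. Of all genes, 33.6% were higher there and 19.6% lower. None of the 7 was called in U87TR, where 27.8% of all genes were. FANCG, a scaffold subunit, had 68.99, 62.4 and 63.4 FPKM in U251TR, against 20.1, 32.6 and 21.7 FPKM in U251MG. All 3 resistant libraries lay above all 3 parental ones, and the rise was 2.61-fold (SE 0.15 on the log2 scale, adjusted p = 9.09e-06). In U87TR, FANCG had 23.2, 24.02 and 25.5 FPKM, against 31.3, 25.8 and 26.7 FPKM in U87MG. These were all below U87MG, but the log2 fold change of -0.19 did not pass (adjusted p = 0.369). FANCF, an adaptor within the complex, had 9.08, 9.03 and 9.31 FPKM in U251TR, against 2.64, 3.95 and 2.61 FPKM in U251MG. It rose 2.52-fold (SE 0.12 on the log2 scale, adjusted p = 2.57e-06). In U87TR, FANCF had 4.02, 3.98 and 4.45 FPKM, against 5.27, 5.72 and 5.12 FPKM in U87MG, where the resistant libraries were again the lower ones without passing (log2 fold change -0.31, SE 0.12, adjusted p = 0.083). FANCL, the catalytic subunit, had 30.4, 28.4 and 22.8 FPKM in U251TR, against 11.5, 18.9 and 10.6 FPKM in U251MG, a rise of 1.97-fold (SE 0.17 on the log2 scale, adjusted p = 0.000493). In U87TR, FANCL had 41.5, 39.7 and 41.4 FPKM, against 37.5, 38.3 and 33.5 FPKM in U87MG. Those values did not overlap, and the change did not pass (log2 fold change 0.16, SE 0.17, adjusted p = 0.533). FANCE, which links the core to FANCD2, had 12.4, 12.6 and 14.6 FPKM in U251TR, against 8.26, 9.31 and 8.44 FPKM in U251MG and rose 1.47-fold (SE 0.10 on the log2 scale, adjusted p = 0.000701). In U87TR, FANCE had 2.4, 2.22 and 2.14 FPKM, against 2.16, 2.73 and 2.4 FPKM in U87MG, which overlapped (log2 fold change -0.07, SE 0.10, adjusted p = 0.65). FANCC, the partner of FANCE, had 11.3, 10.7 and 10.6 FPKM in U251TR, against 7.82, 9.92 and 8.27 FPKM in U251MG and rose 1.23-fold (SE 0.10 on the log2 scale, adjusted p = 0.0209). In U87TR, FANCC had 5.8, 5.9 and 5.3 FPKM, against 4.61, 5.01 and 4.92 FPKM in U87MG, above the parent in every library without passing (log2 fold change 0.19, SE 0.10, adjusted p = 0.178). The U251TR call for FANCC was lost in 6 of 22 other settings, including without U251TR replicate 1, U251MG replicate 1 or U251MG replicate 3, with adjusted p up to 0.183. FANCA, a core subunit that works with FANCG, had 29.7, 27.96 and 21.2 FPKM in U251TR, against 18.8, 31.6 and 17.6 FPKM in U251MG, and FANCM, the translocase that anchors the complex on DNA, had 3.8, 4.06 and 2.11 FPKM in U251TR, against 1.86, 2.57 and 2.5 FPKM in U251MG. For both genes these values overlapped, with adjusted p = 0.329 for FANCA and 0.156 for FANCM. In U87TR, FANCA had 20.5, 25.7 and 27.2 FPKM, against 31.9, 28.9 and 27.1 FPKM in U87MG, and FANCM had 1.78, 1.32 and 1.17 FPKM, against 3.08, 2.09 and 1.72 FPKM in U87MG. Those values also overlapped, and the log2 fold changes were -0.26 and -0.43, neither of which passed.

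Downstream of the core, all 3 members rose in U251TR, where 33.6% of all genes did. None was called in U87TR, where 27.8% of all genes were. FANCI, which is clamped onto DNA together with FANCD2, had the largest rise of the 37 genes. It had 97.2, 86.2 and 76.3 FPKM in U251TR, against 27.5, 38.1 and 25.4 FPKM in U251MG, and all resistant libraries lay above all parental ones, a rise of 2.82-fold (SE 0.13 on the log2 scale, adjusted p = 2.28e-06). In U87TR, FANCI had 51.96, 50.7 and 46.4 FPKM, against 49.6, 46.1 and 45.1 FPKM in U87MG, which overlapped (log2 fold change 0.08, SE 0.13, adjusted p = 0.715). FANCD2 had 29.1, 22.6 and 19.6 FPKM in U251TR, against 11.6, 16.2 and 15.2 FPKM in U251MG and rose 1.61-fold (SE 0.15 on the log2 scale, adjusted p = 0.00218). In U87TR, FANCD2 had 10.1, 10.98 and 11.4 FPKM, against 15.6, 16.1 and 13.2 FPKM in U87MG. The resistant libraries lay below all parental ones, and the difference did not pass (log2 fold change -0.43, SE 0.15, adjusted p = 0.0511); it was called in 9 of 22 other settings, with adjusted p between 0.0175 and 0.162. FANCD2 has near-identical copies elsewhere in the genome, which makes its values uncertain. BRIP1, a helicase that binds BRCA1, had 6.8, 5.8 and 4.19 FPKM in U251TR, against 3.04, 4.86 and 3.29 FPKM in U251MG. These values overlapped; the rise of 1.39-fold (SE 0.18 on the log2 scale, adjusted p = 0.0375) was lost in 8 of 22 other settings, including without U251TR replicate 1 or 2 and without U251MG replicate 1 or 3, with adjusted p up to 0.228. In U87TR, BRIP1 had 5.48, 4.89 and 4.58 FPKM, against 5.88, 4.93 and 4.25 FPKM in U87MG, which overlapped (adjusted p = 1).

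**Figure D2:**
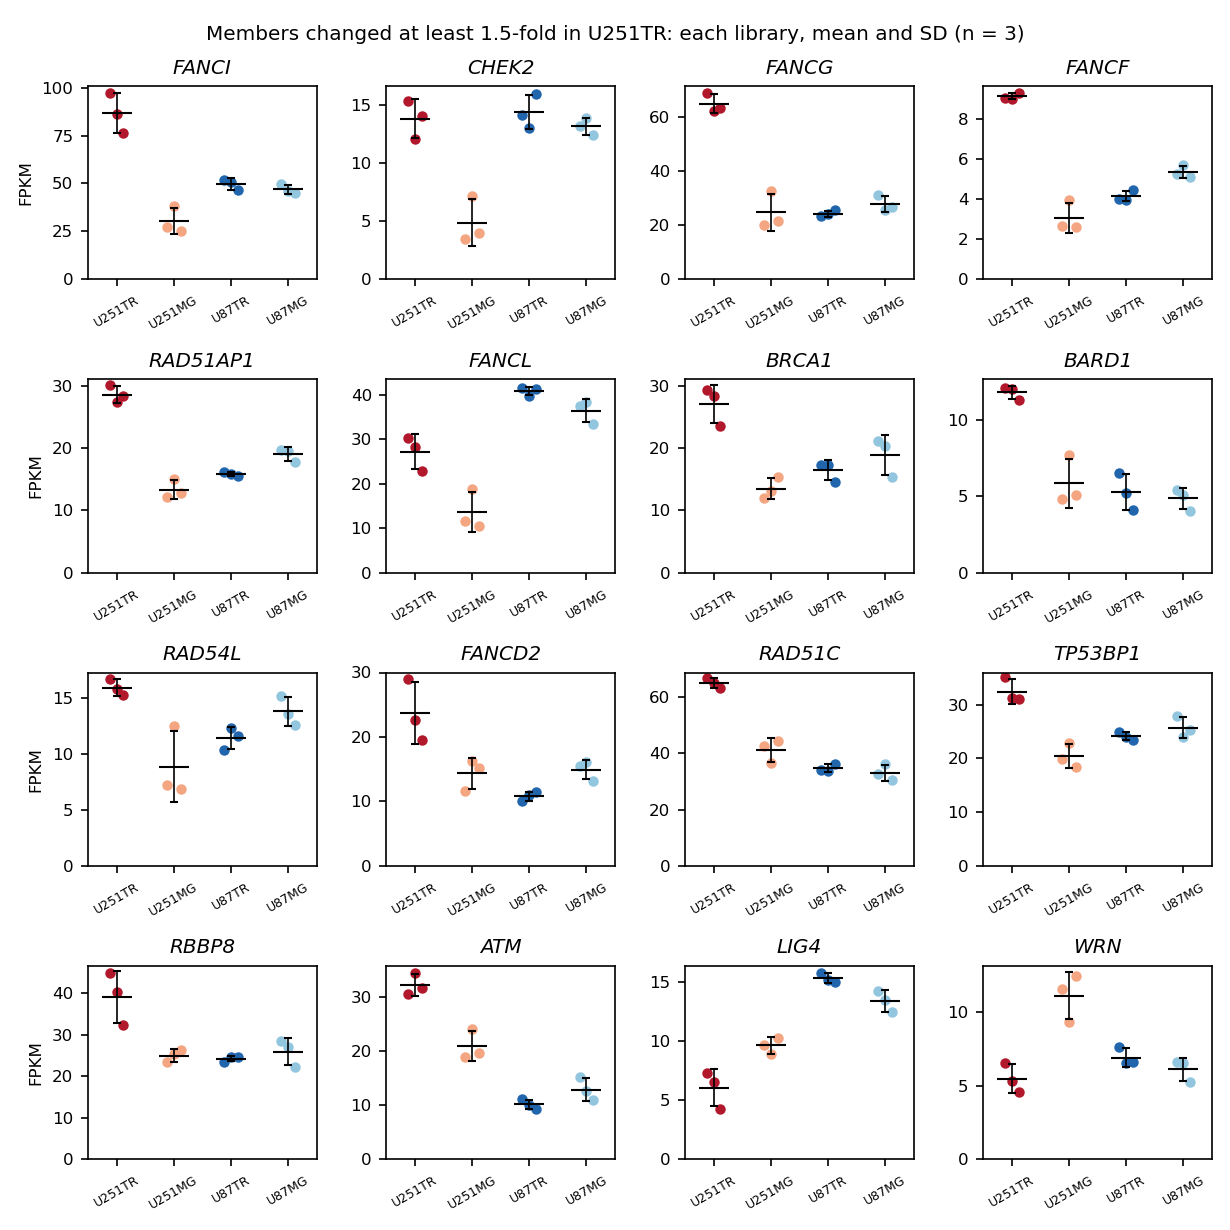
FPKM (y axis, from 0) of the 16 members that changed at least 1.5-fold in U251TR, ordered by log2 fold change. Points are single libraries, and black bars are the mean and SD (n = 3) of U251TR, U251MG, U87TR and U87MG, from left to right. The 3 U251TR points lie above the 3 U251MG points for the first 14 genes and below them for LIG4 and WRN.

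Stretches just before the start of transcription were compared to show whether genes that moved alike in U251TR shared sequence there. The 5 members that rose most and the 4 that fell were picked, and part of them are compared. The RefSeq promoter table of GRCh38.p14 matched 32 of the 37 members. Those shown are CHEK2, FANCG, FANCF and RAD51AP1 of the rising genes, and LIG4 and ATR of the falling genes; FANCI, WRN and PRKDC are not shown. The 120 bases before the start follow, 5′ to 3′ on the gene's own strand, with the 5-letter motif CCAAT or its reverse complement in capitals. They lie at chr22:28741821-28741940 (- strand) for CHEK2, chr9:35079943-35080062 (- strand) for FANCG, chr11:22625824-22625943 (- strand) for FANCF, chr12:4538770-4538889 (+ strand) for RAD51AP1, chr13:108218350-108218469 (- strand) for LIG4 and chr3:142578734-142578853 (- strand) for ATR.
CHEK2: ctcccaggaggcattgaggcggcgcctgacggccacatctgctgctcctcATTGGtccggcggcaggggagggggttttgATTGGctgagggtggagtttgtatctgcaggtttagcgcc
FANCG: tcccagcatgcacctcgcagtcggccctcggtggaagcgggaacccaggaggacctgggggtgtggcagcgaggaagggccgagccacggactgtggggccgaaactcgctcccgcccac
FANCF: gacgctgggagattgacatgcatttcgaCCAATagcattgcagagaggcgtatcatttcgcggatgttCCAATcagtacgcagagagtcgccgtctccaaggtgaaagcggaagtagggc
RAD51AP1: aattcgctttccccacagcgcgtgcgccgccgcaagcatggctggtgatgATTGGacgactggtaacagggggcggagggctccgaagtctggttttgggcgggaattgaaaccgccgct
LIG4: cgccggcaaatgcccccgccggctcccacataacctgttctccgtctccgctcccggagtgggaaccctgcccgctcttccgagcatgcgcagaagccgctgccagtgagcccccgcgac
ATR: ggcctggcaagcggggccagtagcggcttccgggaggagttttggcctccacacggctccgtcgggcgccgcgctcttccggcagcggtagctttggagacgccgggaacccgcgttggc
CCAAT is bound by NF-Y and is common before genes of the cell cycle. In these 120 bases it occurred 2 times in CHEK2, 2 times in FANCF and 1 time in RAD51AP1, and not in FANCG, LIG4 or ATR. Over the whole window of the table, which also takes in bases further upstream and just after the start, and on both strands, 18 of 32 members held it (56.2%), against 37.0% of 10848 promoters of tested genes. It was in 9 of 19 members that rose in U251TR and in 9 of 13 others. Matches of different motifs were counted separately, whether or not they overlapped. The E2F letters TTTGGCGC or TTTCGCGC were in 2 of 32 members (FANCC and XRCC6) and in 2.11% of promoters of tested genes. The CHR letters TTTGAA or TTCGAA were in 5 of 32 members and in 11.42% of promoters. These are counts of letters in one window and say nothing of binding.

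Of 11 homologous recombination genes, 7 were higher in U251TR and 1 was lower, where 33.6% and 19.6% of all genes were. In U87TR 1 of 11 fell, where 17.2% of all genes did. RAD51AP1, which promotes strand invasion into the sister duplex, had 30.2, 27.4 and 28.4 FPKM in U251TR, against 12.1, 15.03 and 12.8 FPKM in U251MG. The resistant libraries were all above the parental ones, 2.08-fold (SE 0.09 on the log2 scale, adjusted p = 1.4e-06). In U87TR, RAD51AP1 had 16.2, 15.9 and 15.5 FPKM, against 19.8, 19.6 and 17.8 FPKM in U87MG, all below the parent without passing (log2 fold change -0.25, SE 0.09, adjusted p = 0.0582). BRCA1, which steers breaks into recombination, had 29.3, 28.4 and 23.5 FPKM in U251TR, against 12.02, 13.1 and 15.3 FPKM in U251MG and rose 1.94-fold (SE 0.14 on the log2 scale, adjusted p = 0.000104). Its obligate partner BARD1 had 12.1, 12.03 and 11.3 FPKM in U251TR, against 4.79, 7.67 and 5.06 FPKM in U251MG and rose 1.903-fold (SE 0.17 on the log2 scale, adjusted p = 0.000706). In U87TR, BRCA1 had 17.3, 17.4 and 14.6 FPKM, against 21.1, 20.4 and 15.3 FPKM in U87MG, and BARD1 had 6.49, 5.21 and 4.1 FPKM, against 5.42, 5.09 and 4.06 FPKM in U87MG. Both genes overlapped between the U87 lines, with log2 fold changes of -0.19 and 0.09. RAD54L, a translocase that remodels the joint molecule, had 16.7, 15.8 and 15.3 FPKM in U251TR, against 7.26, 12.5 and 6.85 FPKM in U251MG and rose 1.77-fold (SE 0.17 on the log2 scale, adjusted p = 0.00161). In U87TR, RAD54L had 10.4, 12.3 and 11.6 FPKM, against 15.2, 13.6 and 12.6 FPKM in U87MG, all below the parent, with a log2 fold change of -0.25 that did not pass (adjusted p = 0.312).

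RAD51C, XRCC2 and XRCC3 act together in strand exchange, and 2 of these 3 rose in U251TR and 1 fell in U87TR. Of all genes, 33.6% rose in U251TR and 17.2% fell in U87TR. RAD51C had 66.95, 65.2 and 63.4 FPKM in U251TR, against 42.6, 36.5 and 44.5 FPKM in U251MG, a rise of 1.57-fold (SE 0.09 on the log2 scale, adjusted p = 6.56e-05), and XRCC2 had 15.6, 12.98 and 11.8 FPKM in U251TR, against 8.88, 10.8 and 9.65 FPKM in U251MG, a rise of 1.34-fold (SE 0.13 on the log2 scale, adjusted p = 0.0137). The XRCC2 call was lost in 3 of 22 other settings, including without U251TR replicate 1 or U251MG replicate 1, with adjusted p up to 0.0665. XRCC3 had 24.5, 23.9 and 23.4 FPKM in U251TR, against 25.6, 22.5 and 25.1 FPKM in U251MG, overlapping values with a log2 fold change of -0.02. In U87TR, XRCC3 had 11.6, 13.1 and 12.2 FPKM, against 17.6, 20.7 and 15.8 FPKM in U87MG. That was a fall of 0.51 on the log2 scale (SE 0.10, adjusted p = 0.00257) in libraries that did not overlap. However, 76.7% of the exon bases of XRCC3 also lie in exons of KLC1 on the other strand in GENCODE v44, and the labels do not state strand-specific counting, so reads of the pair may not be separable. Smaller opposite-strand overlaps were found for TP53BP1 (28.8% of exon bases), RAD54L (19.9%), FANCA (19.6%) and CHEK1 (13.4%). In U87TR, RAD51C had 34.2, 33.8 and 36.4 FPKM, against 32.5, 36.3 and 30.6 FPKM in U87MG, and XRCC2 had 10.8, 10.9 and 10.4 FPKM, against 13.9, 12.8 and 10.3 FPKM in U87MG. Neither passed, with log2 fold changes of 0.07 and -0.18.

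Among the loaders and helicases, BLM rose and WRN fell in U251TR. PALB2, the bridge between BRCA1 and BRCA2, had 7.41, 7.45 and 5.47 FPKM in U251TR, against 6.44, 6.35 and 6.14 FPKM in U251MG. In U87TR, PALB2 had 7.32, 8.56 and 8.55 FPKM, against 10.6, 9.51 and 7.27 FPKM in U87MG. Neither comparison passed. BRCA2, a mediator of strand exchange, had 6.82, 7.16 and 2.19 FPKM in U251TR, against 2.68, 3.06 and 2.41 FPKM in U251MG, so that 1 resistant library was below all parental ones and the other 2 were above. The change did not pass on all libraries (log2 fold change 0.67, SE 0.28, adjusted p = 0.0621) and was 1.11 (adjusted p = 4.31e-05) without U251TR replicate 3. BRCA2 lay between 3.14 and 3.67 FPKM in U87TR, against 2.77, 3.03 and 2.35 FPKM in U87MG, above the parent in every library without passing. Of the RecQ helicases, BLM had 8.26, 7.55 and 5.98 FPKM in U251TR, against 3.89, 5.76 and 4.09 FPKM in U251MG and rose 1.49-fold (SE 0.14 on the log2 scale, adjusted p = 0.00383), while WRN had 6.55, 5.31 and 4.59 FPKM in U251TR, against 11.6, 9.35 and 12.5 FPKM in U251MG. This was the largest fall of the 37 genes (log2 fold change -0.91, SE 0.14, adjusted p = 0.000183), in libraries that did not overlap. In U87TR, BLM had 4.57, 4.78 and 4.78 FPKM, against 4.77, 4.69 and 4.41 FPKM in U87MG, and WRN had 7.64, 6.53 and 6.59 FPKM, against 6.59, 6.55 and 5.22 FPKM in U87MG. These overlapped for both genes and did not pass.

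Of 4 break recognition and resection genes, 1 was called in each line, where 53.2% of all genes were called in U251TR and 27.8% in U87TR. RBBP8, which codes for CtIP and starts resection, had 44.8, 40.4 and 32.3 FPKM in U251TR, against 23.3, 25.3 and 26.3 FPKM in U251MG and rose 1.54-fold (SE 0.12 on the log2 scale, adjusted p = 0.001). In U87TR, RBBP8 had 23.5, 24.6 and 24.6 FPKM, against 28.4, 27.1 and 22.1 FPKM in U87MG, with no change that passed. MRE11A, the nuclease of the MRE11-RAD50-NBN complex, had 12.9, 15.8 and 11.1 FPKM in U251TR, against 9.14, 12.8 and 9.12 FPKM in U251MG, which overlapped and did not pass (log2 fold change 0.34, SE 0.16, adjusted p = 0.0892). It was called higher in 5 of 22 other settings, including 0.48 (adjusted p = 0.0138) without U251MG replicate 2 and 0.45 (adjusted p = 0.0448) without U251TR replicate 3. In U87TR, MRE11A had 5.32, 6.12 and 4.94 FPKM, against 7.93, 9.63 and 7.43 FPKM in U87MG. This fall (log2 fold change -0.53, SE 0.16, adjusted p = 0.0251) was lost in 5 of 22 other settings, among them without U87TR replicate 1 or 3 and without U87MG replicate 1 or 2, with adjusted p up to 0.108. Its partners did not pass. RAD50 had 22.8, 22.2 and 13.03 FPKM in U251TR, against 19.7, 17.95 and 21.8 FPKM in U251MG, and NBN had 22.8, 22.4 and 18.4 FPKM in U251TR, against 20.8, 18.7 and 20.96 FPKM in U251MG. For RAD50 this was log2 fold change -0.07, SE 0.19, adjusted p = 0.78, and for NBN log2 fold change 0.07, SE 0.11, adjusted p = 0.641. In the annotation, 76.9% of the exon bases of RAD50 also lie in another gene on the same strand. In U87TR, RAD50 had 16.8, 19.6 and 16.4 FPKM, against 19.7, 18.9 and 14.3 FPKM in U87MG, and NBN had 18.5, 20.1 and 16.8 FPKM, against 20.3, 19.1 and 16.95 FPKM in U87MG, with log2 fold changes of 0.01 and -0.02.

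Of the 4 damage kinases, 2 rose and 1 fell in U251TR, where 33.6% and 19.6% of all genes did. None was called in U87TR, where 27.8% of all genes were. ATM, the kinase of double-strand breaks, had 30.5, 34.5 and 31.6 FPKM in U251TR, against 18.97, 24.1 and 19.6 FPKM in U251MG and rose 1.52-fold (SE 0.13 on the log2 scale, adjusted p = 0.00151). CHEK2, the checkpoint kinase it activates, had 15.4, 12.1 and 14.1 FPKM in U251TR, against 3.48, 7.2 and 3.96 FPKM in U251MG and rose 2.61-fold (SE 0.19 on the log2 scale, adjusted p = 6.37e-05). In U87TR, CHEK2 had 14.2, 13.1 and 16.01 FPKM, against 13.2, 13.9 and 12.4 FPKM in U87MG, which overlapped. CHEK2 has near-identical copies, which makes its values uncertain. ATR, the kinase of stalled forks and single-stranded DNA, had 8, 9.85 and 6.31 FPKM in U251TR, against 10.8, 11.4 and 11.8 FPKM in U251MG. It was lower in every U251TR library (log2 fold change -0.46, SE 0.18, adjusted p = 0.0484), but the call was lost in 13 of 22 other settings, including without U251TR replicate 1 or 3 and without any 1 of the U251MG libraries, with adjusted p up to 0.227. CHEK1, the effector of ATR, had 47.9, 52.6 and 49.6 FPKM in U251TR, against 45.5, 51.2 and 45.7 FPKM in U251MG, which overlapped (log2 fold change 0.08, SE 0.12, adjusted p = 0.641). In U87TR, ATM had 11.1, 9.92 and 9.31 FPKM, against 15.2, 12.6 and 10.8 FPKM in U87MG, and ATR had 11.9, 15.8 and 15.8 FPKM, against 13.1, 9.86 and 7.84 FPKM in U87MG. Neither passed, with adjusted p = 0.0881 for the lower ATM and 0.0705 for the higher ATR. In U87TR, CHEK1 had 18.1, 20.8 and 20.7 FPKM, against 25.02, 19.6 and 16.7 FPKM in U87MG, with a log2 fold change of -0.02.

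Of the chromatin factors at breaks, 2 of 3 rose in U251TR, where 33.6% of all genes did. None was called in U87TR, where 27.8% of all genes were. TP53BP1, which restrains resection and favours end joining, had 35.1, 31.2 and 31 FPKM in U251TR, against 19.8, 22.9 and 18.5 FPKM in U251MG and rose 1.57-fold (SE 0.09 on the log2 scale, adjusted p = 0.000114). H2AFX, the histone variant that ATM phosphorylates around a break, had 252, 281 and 283 FPKM in U251TR, against 182, 266 and 176 FPKM in U251MG. U251MG replicate 2 overlapped the resistant libraries, and the rise of 1.33-fold (SE 0.13 on the log2 scale, adjusted p = 0.0207) was lost in 6 of 22 other settings, including without U251TR replicate 2 or 3 and without U251MG replicate 1 or 3, with adjusted p up to 0.093. H2AFX also has closely related histone genes, which makes its values uncertain. MDC1, which reads phosphorylated H2AX, had 20.6, 21.2 and 20.8 FPKM in U251TR, against 15.8, 19.1 and 17.8 FPKM in U251MG, above the parent in every library without passing (log2 fold change 0.24, SE 0.15, adjusted p = 0.206). In U87TR, TP53BP1 had 24.9, 23.99 and 23.4 FPKM, against 27.8, 24.02 and 25.3 FPKM in U87MG, H2AFX had 44.3, 48.1 and 48.04 FPKM, against 62.8, 57.97 and 56.4 FPKM in U87MG, and MDC1 had 6.26, 7.56 and 6.2 FPKM, against 9.88, 10.1 and 6.17 FPKM in U87MG. None of these passed, although every U87TR library of H2AFX was below every U87MG library (log2 fold change -0.33, SE 0.13, adjusted p = 0.0872).

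In U251TR 1 of 5 end joining genes was higher and 2 were lower, where 33.6% and 19.6% of all genes were. None was called in U87TR, where 27.8% of all genes were. PRKDC, the catalytic subunit of the DNA-dependent protein kinase, had 34.97, 37.5 and 30.6 FPKM in U251TR, against 50.9, 50.6 and 50.1 FPKM in U251MG, a fall of 0.55 on the log2 scale (SE 0.10, adjusted p = 0.000458) with no overlap. LIG4, the ligase of the pathway, had 7.29, 6.55 and 4.27 FPKM in U251TR, against 9.72, 8.93 and 10.3 FPKM in U251MG, a fall of 0.62 (SE 0.14, adjusted p = 0.00298) with no overlap. XRCC4, the partner of LIG4, had 8.36, 8.13 and 5.62 FPKM in U251TR, against 6.35, 7.37 and 7.1 FPKM in U251MG and did not pass (log2 fold change 0.06, SE 0.13, adjusted p = 0.737). The Ku heterodimer binds the ends: XRCC5, its larger subunit, had 151, 154 and 153 FPKM in U251TR, against 118, 129.6 and 124 FPKM in U251MG and rose 1.23-fold (SE 0.08 on the log2 scale, adjusted p = 0.0071). The XRCC5 call was lost with median-of-ratios scaling (adjusted p = 0.0748). XRCC6, its smaller subunit and the most abundant of the 37 transcripts on average, had 215, 222 and 239 FPKM in U251TR, against 224, 228 and 224 FPKM in U251MG, which overlapped (adjusted p = 1). It too has near-identical copies. In U87TR, PRKDC had 49.7, 53.8 and 54.7 FPKM, against 68.7, 59.3 and 54.9 FPKM in U87MG, and LIG4 had 15.8, 15.2 and 15.02 FPKM, against 14.3, 13.5 and 12.5 FPKM in U87MG. PRKDC lay below the parent and LIG4 above it in every library, and neither passed. In U87TR, XRCC4 had 8.91, 10.4 and 9.28 FPKM, against 11.3, 10.5 and 9.38 FPKM in U87MG, XRCC5 had 123, 127 and 126 FPKM, against 146, 135 and 117 FPKM in U87MG, and XRCC6 had 239.6, 255 and 263 FPKM, against 262, 241 and 223 FPKM in U87MG. All of these overlapped.

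Other genes of the same processes were read from 4 lists with 80 genes in all. In U251TR 32 of 80 rose (40%, where 33.6% of all genes rose) and 7 fell (8.8%, where 19.6% fell), and their median log2 fold change was 0.17. In U87TR 3 rose (3.8%, where 10.6% of all genes rose) and 14 fell (17.5%, where 17.2% fell), and the median was -0.14. The share that rose in U251TR and the share that fell in U87TR were near those of all genes. Among 26 other recombination genes, 14 rose (53.8%) and none fell in U251TR, including RAD51D, which acts with XRCC2, at 21.4 ± 8.09 FPKM in U251TR and 9.15 ± 0.265 FPKM in U251MG (SD, n = 3 each, adjusted p = 0.000622), and FIGNL1, an ATPase, at 24.9 ± 2.56 FPKM in U251TR and 12.2 ± 2.397 FPKM in U251MG (SD, n = 3 each, adjusted p = 4.93e-05). In U87TR 3 of the 26 rose and 3 fell (11.5% each). SFR1 rose there, with 11.5 ± 1.85 FPKM in U87TR and 8.39 ± 1.38 FPKM in U87MG (SD, n = 3 each, adjusted p = 0.0339). SFR1 also rose in U251TR (log2 fold change 0.63, adjusted p = 0.00166 in limma). MUS81, a nuclease that cuts joint molecules, fell, with 13.7 ± 1.05 FPKM in U87TR and 31.4 ± 1.27 FPKM in U87MG (SD, n = 3 each, adjusted p = 2.49e-06), and so did MCM8, with 6.15 ± 0.641 FPKM in U87TR and 8.57 ± 1.35 FPKM in U87MG (SD, n = 3 each, adjusted p = 0.0299). In U251TR, MUS81 was called higher (log2 fold change 0.25, adjusted p = 0.041 in limma), and MCM8 was not called. Among 16 other Fanconi and crosslink genes, 7 rose (43.8%) and 2 fell (12.5%) in U251TR. UBE2T, which supplies ubiquitin to FANCL, had 94.7 ± 3.39 FPKM in U251TR and 35.9 ± 9.06 FPKM in U251MG (SD, n = 3 each, adjusted p = 5.07e-06), and MAD2L2, a subunit of the translesion polymerase zeta, had 117 ± 9.59 FPKM in U251TR and 54.6 ± 1.39 FPKM in U251MG (SD, n = 3 each, adjusted p = 1.58e-06). The falls were smaller, with 9.89 ± 0.235 FPKM in U251TR and 12.1 ± 0.252 FPKM in U251MG (SD, n = 3 each, adjusted p = 0.0351) for the nuclease FAN1 and 62.4 ± 1.17 FPKM in U251TR and 75.4 ± 6.09 FPKM in U251MG (SD, n = 3 each, adjusted p = 0.00817) for the nuclease subunit ERCC1. In U87TR none of the 16 rose and 3 fell (18.8%) in limma, among them C17orf70, a core complex subunit, with 4.303 ± 0.264 FPKM in U87TR and 10.7 ± 0.428 FPKM in U87MG (SD, n = 3 each, adjusted p = 1.23e-06), and C19orf40, another, with 6.69 ± 0.907 FPKM in U87TR and 9.59 ± 0.279 FPKM in U87MG (SD, n = 3 each, adjusted p = 0.0427). The remaining fall was MAD2L2 (log2 fold change -0.31, adjusted p = 0.0281). C19orf40 rose in U251TR (log2 fold change 0.80, adjusted p = 0.000984). MAD2L2 and C19orf40 were thus called in opposite directions in the lines.

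Among 12 other end joining genes, 3 rose (25%) and none fell in U251TR, and none rose and 3 fell (25%) in U87TR. POLQ, the polymerase of the alternative end joining pathway, had 10.2 ± 1.26 FPKM in U251TR and 4.97 ± 1.08 FPKM in U251MG (SD, n = 3 each, adjusted p = 0.000405), and APTX had 56.6 ± 3.57 FPKM in U251TR and 44.02 ± 6.52 FPKM in U251MG (SD, n = 3 each, adjusted p = 0.0131). LIG3, a ligase of alternative end joining, fell in U87TR with 7.31 ± 0.488 FPKM in U87TR and 10.7 ± 1.12 FPKM in U87MG (SD, n = 3 each, adjusted p = 0.00368), and C9orf142 fell with 22.6 ± 3.46 FPKM in U87TR and 30.9 ± 0.268 FPKM in U87MG (SD, n = 3 each, adjusted p = 0.0102). Among 26 signalling and checkpoint genes, 8 rose (30.8%) and 5 fell (19.2%) in U251TR, shares close to the 33.6% and 19.6% of all genes. None of the 26 rose and 5 fell (19.2%) in U87TR, where 10.6% of all genes rose and 17.2% fell. CDC25C, the phosphatase that the checkpoint kinases restrain, had 22.5 ± 0.905 FPKM in U251TR and 10.8 ± 2.44 FPKM in U251MG (SD, n = 3 each, adjusted p = 2.51e-05), and CLSPN, which brings CHEK1 to ATR, had 15.8 ± 2.33 FPKM in U251TR and 8.16 ± 4.23 FPKM in U251MG (SD, n = 3 each, adjusted p = 0.00762). BRCC3, a deubiquitinase of a BRCA1 complex, fell with 10.1 ± 0.907 FPKM in U251TR and 16.5 ± 2.01 FPKM in U251MG (SD, n = 3 each, adjusted p = 0.000364), and WEE1, which holds the entry to mitosis, fell with 24.3 ± 0.78 FPKM in U251TR and 36.3 ± 5.39 FPKM in U251MG (SD, n = 3 each, adjusted p = 0.00138). RNF8, a ubiquitin ligase at breaks, fell in U87TR with 7.06 ± 0.816 FPKM in U87TR and 10.2 ± 2.3 FPKM in U87MG (SD, n = 3 each, adjusted p = 0.0322), and RAD1, a subunit of the checkpoint clamp, fell with 15.04 ± 2.18 FPKM in U87TR and 20.9 ± 2.27 FPKM in U87MG (SD, n = 3 each, adjusted p = 0.046).

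Many of these genes are transcribed mainly in cycling cells, so 18 genes of S phase and proliferation were measured beside them. In U251TR 7 of the 18 rose (38.9%, where 33.6% of all genes rose) and 1 fell. In U87TR 1 rose (5.6%, where 10.6% of all genes rose) and none fell. In these bulk libraries, fewer cells of a kind and less RNA per cell cannot be told apart. Their summed level was 1345, 1369.8 and 1303 FPKM in the U251TR libraries, against 853, 1361 and 871 FPKM in U251MG. U251MG replicate 2 was therefore within the range of the resistant line. That library also had the highest value of its group for 26 of the 37 members, and the same count over all genes was not taken. The part of proliferation in the members' values was not tested. Summed over the 10 Fanconi members, U251TR had 299, 269.7 and 244 FPKM, against 113, 168 and 116 FPKM in U251MG. In U87TR the 18 proliferation genes summed to 1409, 1476 and 1426 FPKM, against 1322, 1303 and 1208 FPKM in U87MG, with no overlap. The 10 Fanconi members in the same libraries summed to 167, 169 and 169 FPKM in U87TR, against 187, 176 and 164 FPKM in U87MG, which overlapped. Such sums weigh abundant genes most. RRM2 averaged 139 FPKM in U251TR, 54.3 FPKM in U251MG, 330 FPKM in U87TR and 245 FPKM in U87MG. MCM5 went the other way in U251TR, at 7.25 FPKM against 24.4 FPKM in U251MG. Of the 18 proliferation genes, 11 had a log2 fold change above 0 in U251TR (median 0.31) and 12 in U87TR (median 0.11).

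**Figure D3:**
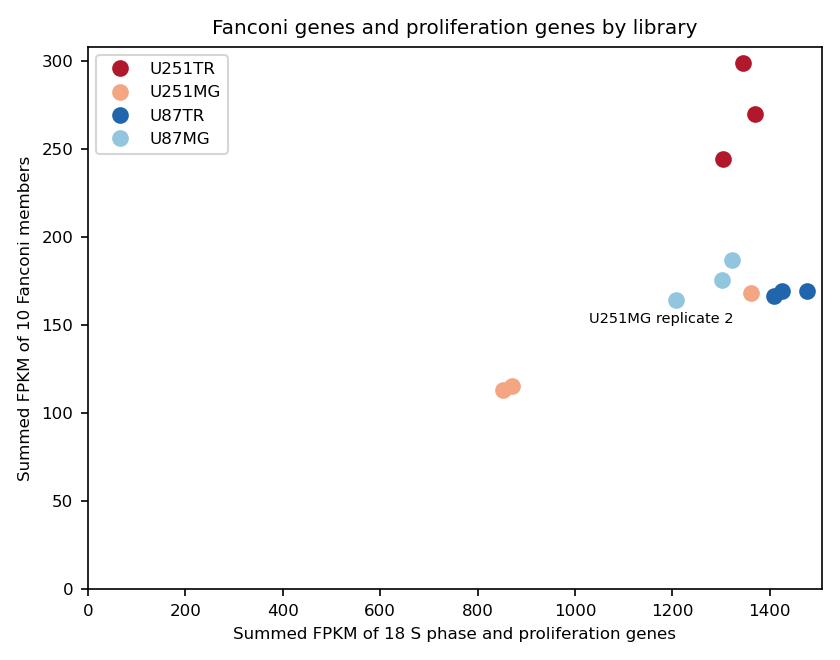
Summed FPKM of the 10 Fanconi members (y axis) against summed FPKM of 18 S phase and proliferation genes (x axis), 1 point per library and 1 colour per group. U251MG replicate 2 lies at 1361 FPKM on the x axis among the U251TR libraries, at 168 FPKM on the y axis, below all 3 of them (244 to 299 FPKM).

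U251TR replicate 3 was the lowest library of its group for 26 of the 37 members, and its deviation varied with transcript length. How often it was lowest over all genes was not counted. All 22 members with a canonical transcript of 4000 bases or more had a value below the mean of U251TR replicates 1 and 2, by a median of 0.29 on the log2 scale. Of the 15 shorter members 9 were below, with a median difference of -0.05. That boundary was set after the values were seen. Over all genes matched to a length, the medians were -0.06 for 5192 long and 0.03 for 8439 short transcripts. The rank correlation of length with this deviation was -0.44 over the 37 members and -0.31 over 13631 genes, which share 1 library and are not independent. The same correlation over the members was -0.44 in U87TR replicate 3, where it was -0.45 over all genes, and -0.44 in U87MG replicate 3, where it was -0.03. BRCA2 was 1.32 lower in U251TR replicate 3 than in its 2 sister libraries on the log2 scale, and RAD50 was 0.74 lower. Of the long members 10 rose and 3 fell in U251TR, and of the short ones 11 rose and 1 fell. The part of RNA quality in these values was not tested. Mitochondrially encoded transcripts, read beside them as a sign of it, fell for 7 of 13 in U251TR and rose for none, where 19.6% of all genes fell and 33.6% rose. In U87TR 3 of the 13 fell and 1 rose, where 17.2% of all genes fell and 10.6% rose.

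**Figure D4:**
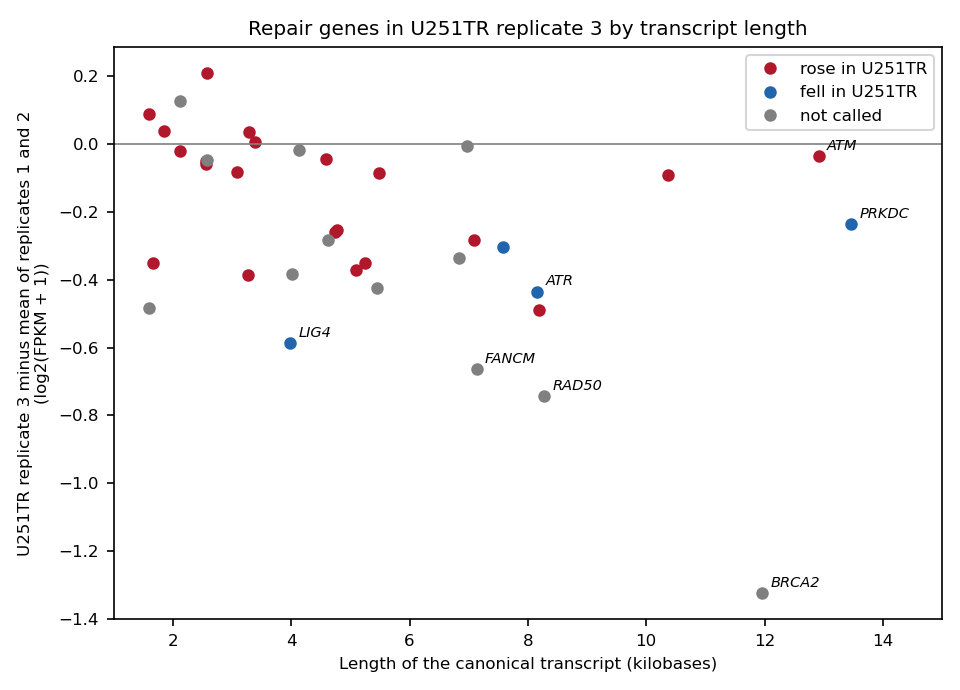
Log2(FPKM + 1) in U251TR replicate 3 minus the mean of replicates 1 and 2 (y axis) for each of the 37 members, against the length of the canonical GENCODE v44 transcript in kilobases (x axis). Colours mark the call in U251TR against U251MG. Every member of 4 kilobases or more lies below 0, and BRCA2 lies lowest at -1.32.

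The parental lines themselves differed at 22 of the 37 genes, where 72.3% of all genes differed. In U87MG 13 were higher than in U251MG (35.1%, where 32.2% of all genes were higher) and 9 were lower (24.3%, where 40.1% were). The U87MG libraries all lay above U251MG for 11 members and all below for 9, where 32.0% and 40.3% of all genes did so. This comparison shares its libraries with the comparisons above. H2AFX had 62.8, 58.0 and 56.4 FPKM in U87MG, against 182, 266 and 176 FPKM in U251MG, a log2 difference of -1.77 (adjusted p = 1.3e-07). FANCE and CHEK1 were also lower in U87MG, with log2 differences of -1.497 and -1.19, in libraries that did not overlap. CHEK2 and FANCL were higher in U87MG, 2.499-fold and 2.63-fold. For CHEK2 the U251TR libraries spanned the U87MG range, and for FANCL they lay between the U251MG and U87MG libraries. At the low end of all members, FANCM averaged 1.42 ± 0.318 FPKM in U87TR and 2.30 ± 0.703 FPKM in U87MG (SD, n = 3 each). XRCC6, at the high end, averaged 253 ± 11.8 FPKM in U87TR and 242.0 ± 19.5 FPKM in U87MG (SD, n = 3 each).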

How the data were processed

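RNA of 12 libraries (4 groups of 3) was sequenced as 150-base pairs with a TruSeq kit, per the labels' protocols. Values were used as deposited by the authors in 1 table of FPKM per gene symbol. No header states the unit: it was inferred from the values, and the table gives no counts. STAR 2.5.2b, RSEM 1.2.31 and hg19 are named in the submitters' processing notes, whereas the series text names hg38. Of 31681 rows, 27 with symbols turned into dates were left out, and 0 value columns were unmapped.

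The 15449 genes that reached 1 FPKM in 3 or more libraries were fitted on log2(FPKM + 1) with limma 3.58.1 in R 4.3.3. Group means of all 12 libraries shared 1 spread, with trended, robust moderation and Benjamini-Hochberg adjustment over all genes, and calls were made at adjusted p under 0.05. Fold changes are on the log2(FPKM + 1) scale, which understates changes of low genes. The procedure was tested on simulated data. The contrasts were U251TR against U251MG, U87TR against U87MG, their difference, and U87MG against U251MG. Alternatives were other pseudocounts, filters, scalings, a replicate block, separate fits, a 1.5-fold minimum and leaving out libraries.

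The members and lists were chosen with earlier results of these data known. Library values are given for members changed at least 1.5-fold or differing between lines, and for the highest other member of each role. Values of the remaining members, and genes outside this rule, were chosen after their values were seen. From each other list, up to 2 genes with the largest rise and fall per comparison are named, apart from 1 gene that is not reported here. Transcript lengths and exon overlaps came from GENCODE v44, and promoters from RefSeq GRCh38.p14. Replicate numbers are shared between groups, but the labels do not say that they pair libraries.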

Additional observations from a re-analysis of the deposited data

Results flagged for a closer look

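The change with resistance differed between the lines at 25 of the 37 genes, by the contrast of the U87 and U251 changes in limma at adjusted p under 0.05, where 47.6% of all genes tested differed. All values are the U87 change minus the U251 change on the log2 scale. Of these 25 genes, 18 had log2 fold changes of opposite sign in the lines, and 22 were called in U251TR. Selection by this contrast favours both, and the same shares over all genes were not taken. In U87TR only MRE11A and XRCC3 were called, so most of the U87 signs belong to changes that did not pass.

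Among the Fanconi genes the differences were -1.64 for FANCF, -1.58 for FANCG, -1.42 for FANCI, -1.12 for FANCD2, -0.81 for FANCL, -0.79 for FANCM and -0.62 for FANCE. Among the recombination genes they were -1.30 for RAD51AP1, -1.14 for BRCA1, -1.08 for RAD54L, -0.84 for BARD1, -0.60 for XRCC2, -0.58 for RAD51C, -0.55 for BLM and -0.48 for XRCC3. WRN differed the other way, by 1.06. The kinases differed by -1.27 for CHEK2, -0.92 for ATM and 0.94 for ATR. At break ends and in chromatin the differences were -0.86 for MRE11A, -0.70 for RBBP8, -0.74 for H2AFX and -0.73 for TP53BP1. In end joining they were -0.38 for XRCC5 and 0.81 for LIG4. Of the 25 calls, 20 held in every other setting run. The BLM call was lost in 12 of 21 settings (adjusted p up to 0.163) and the FANCM call in 11 of 20 (adjusted p up to 0.0983), most of them with 1 library left out. Both held without U251TR replicate 3, U251MG replicate 2 or U87MG replicate 3. XRCC2 and XRCC3 were each lost in 2 settings and XRCC5 in 1, all of them other scalings. In U87 the library number block cannot be told apart from resistance.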

How the results depend on the processing

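No called member changed direction under any alternative run. In U251TR 19 of 25 member calls held in all 22 alternatives, and members lower numbered 2 at 1.5-fold or more, where 4793 genes were called. Leaving out 1 library at a time gave 17 to 23 members higher and 3 to 4 lower. In those fits 4303 to 5634 genes were higher and 2530 to 3185 lower. In U87TR members lower numbered 1 with no filter, where 2396 of 31654 genes were lower. They numbered 6 with the 6 libraries fitted alone, where 2824 of 15449 genes were lower. At 1.5-fold or more they numbered 0, where 2046 genes were called. Leaving out 1 library gave 1 to 8 lower and 0 to 1 higher in U87TR. In those fits 1722 to 3458 genes were lower and 1137 to 2149 higher. With median-of-ratios scaling 1 member was higher in U87TR, and 1 with quantile normalization, where 2022 and 1998 of 15449 genes were. Without both U251MG replicate 2 and U251TR replicate 3, a choice made after seeing the data, 1 was higher and 7 were lower in U87TR. There 2153 of 14853 genes were higher and 3534 lower. Members higher in U87MG than in U251MG numbered 5 of 37 at 1.5-fold or more, where 23.1% of all genes were. Leaving out a U251 library cannot move a U87TR fold change, as each group has its own mean. Without U251MG replicate 2 the members' median in U87TR stayed at -0.083. Only the shared spread and the set of genes tested could differ in that fit. The cause of the other shifts was not tested, apart from the stricter fold minimum, which can only remove calls. Same-numbered libraries of resistant and parental lines correlated between -0.058 and 0.116, so the numbers were not taken as pairs. With the number as a replicate block, 23 members were higher and 3 lower in U251TR, where 5129 and 2990 of 15449 genes were. The counts were 0 and 2 in U87TR, where 1560 and 2534 genes were called. They were 3 and 23 in the difference (2332 and 4870 genes), and 13 and 10 between parents (4947 and 6190 genes). Quantile normalization moved the median log2 fold change of all genes in U251TR to -0.01, against 0.10 as deposited. Without counts, the part of depth cannot be given.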

Other observations

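Members were also read beside their 10 tested neighbours on each side along the chromosome, with 13608 of 15449 tested genes placed. In U251TR, FANCG changed by 1.38 and its neighbours by a median of 0.87 on the log2 scale. BLM changed by 0.57, and its neighbours by a median of 0.92. CHEK2 changed by 1.38, and its neighbours by a median of -0.04. LIG4 changed by -0.62, and its neighbours by a median of -0.02. These genes were chosen after their values were seen.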
